A study of Homo sapiens with 16 samples.

Results

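The feedback genes of the FGF and ERK pathway were followed while cells of H9, an established line of human embryonic stem cells, were driven toward definitive endoderm with activin A, a ligand that acts like nodal. The genes were chosen by name: the phosphatases DUSP4, DUSP5 and DUSP6, the Sprouty inhibitors SPRY1, SPRY2 and SPRY4, the membrane inhibitor IL17RD, and the ETS transcription factors ETV1, ETV4 and ETV5. All 10 were found, each on 1 probe set that carries no other gene's symbol, among the 18495 probe sets of a Human Exon 1.0 ST array. Ribosomal RNA was removed before amplification, labelling and hybridisation. The day 0 group held 4 biological samples of undifferentiated cells, kept on mouse embryonic fibroblasts or Matrigel in fibroblast-conditioned medium with 20% serum replacement and bFGF at 8 ng/ml. The day 1, day 3 and day 5 groups held 3, 3 and 4 biological samples given activin A at 100 ng/ml in RPMI-1640, with serum (FBS) raised from 0 through 0.2 to 2%. For replicate 4 at day 0, and likewise at day 5, 2 arrays were hybridised and averaged, so that 16 arrays gave 14 samples. The labels list bFGF, an FGF, for the day 0 medium and do not list it for the activin medium, so that activin, base medium, serum, bFGF and time cannot be told apart. All samples came from 1 cell line, and nothing in the labels says that the numbered biological replicates were separate cultures, so p-values measure the spread between these samples.

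FGF binding to a receptor tyrosine kinase activates RAS and the kinases RAF, MEK and ERK. Active ERK then induces, among other genes, proteins that restrain it. DUSP phosphatases remove the activating phosphates from MAP kinases, and Sprouty proteins and IL17RD (also called SEF) act upstream of or on the cascade. ETV1, ETV4 and ETV5, the PEA3 family of ETS factors, are also targets of the pathway and carry the signal to target promoters. In human embryonic stem cells FGF and activin signalling both support the undifferentiated state, and both also take part in the formation of mesendoderm. The arrays measured transcripts and no ERK activity, and in bulk RNA fewer cells expressing a gene and less RNA per cell cannot be told apart.

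The values below are log2 of the deposited intensity plus 1. A level says nothing against another gene's level, since each probe set has its own response. Of the marker lists used to check the labels, the 11 measured definitive endoderm markers summed to 3957.8 to 8337.1 linear intensity units at day 0, 10340.1 to 26206.0 at day 1 and 44426.3 to 58506.4 at day 5. The 9 measured undifferentiated stem cell markers summed to 46427.8 to 62568.7 at day 0 and still to 20780.1 to 45576.5 at day 5. The 9 primitive streak markers summed to 1643.5 to 3188.3 at day 0, 13349.8 to 29920.5 at day 1 and 12287.8 to 22626.4 at day 5. The library with the label day 3 replicate 2 differed from its group: its endoderm sum was 4954.9, against 41163.5 and 47626.3 in replicates 1 and 3, and its SOX17, an endoderm transcription factor, was at 5.52 against 11.21 and 11.37. Its median correlation with the other samples of its group was 0.83, day 5 replicate 2 had 0.86, and the others ran from 0.90 to 0.96. Results are therefore given with all samples and, where stated, without these samples. Summed markers of fibroblasts, a possible feeder remnant, ran from 2553.8 to 6291.0 at day 0, 1282.0 to 2427.2 at day 1, 1941.7 to 3259.3 at day 3 and 2288.5 to 7997.7 at day 5, and their part in the results below was not tested.

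At day 5, DUSP4 was higher than at day 0, SPRY1 and ETV1 were lower, and 7 of the 10 genes did not pass the test. These 3 calls compare with 5.46% of all 18495 probe sets (limma, adjusted p under 0.05 by the Benjamini-Hochberg method over all probe sets). One rose and 2 fell, while 2.56% of all probe sets rose and 2.89% fell. The median change of the 10 genes was -0.33 on the log2 scale beside -0.02 for all probe sets, and their median absolute change was 0.81 beside 0.37. The direction of the former rests on 1 sample: without day 5 replicate 2 the median was 0.16, and without day 0 replicate 4 it was -0.05. The day 5 and day 0 samples did not overlap for 4 of the 10 genes, DUSP4, SPRY1, SPRY2 and ETV1, against 14.6% of all probe sets.

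**Figure D1:**
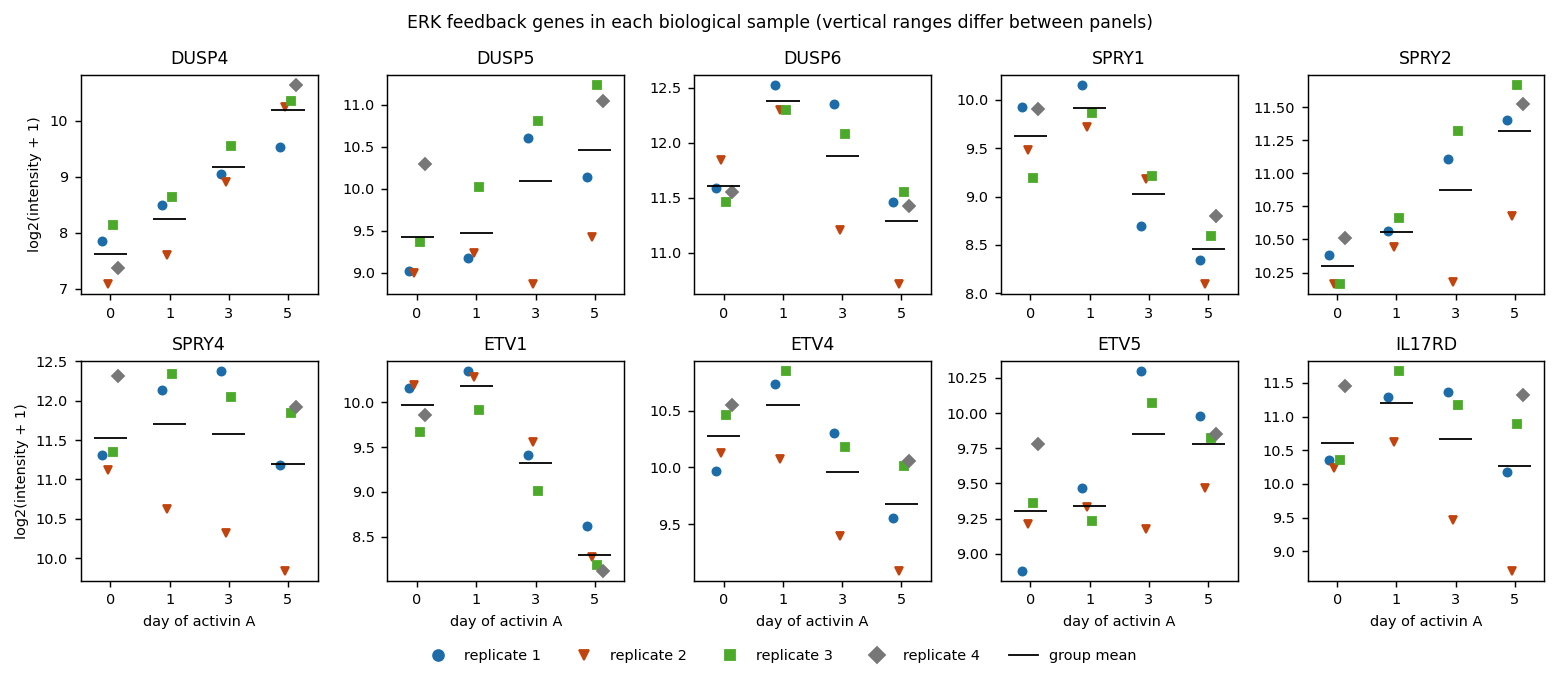
Log2 intensity (vertical axis, log2 of the deposited value plus 1) of the 10 genes by day of activin A (horizontal axis), 1 panel a gene. Points are biological samples, 4 at days 0 and 5 and 3 at days 1 and 3, with the replicate number as symbol and the group mean as a line; SPRY1 lies between 8.09 and 8.80 at day 5 against 9.19 to 9.93 at day 0.

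DUSP4 encodes a nuclear phosphatase that acts on ERK, JNK and p38. At day 0 it read 7.86, 7.08, 8.14 and 7.38 in replicates 1 to 4. Replicates 1, 2 and 4 (231.4, 134.0 and 165.8 linear units) lay below the array medians, 245.1 to 246.3. The part of background signal in these was not tested. At day 1 DUSP4 read 8.49, 7.61 and 8.65, at day 3 9.06, 8.91 and 9.55, and at day 5 9.54, 10.25, 10.36 and 10.65. Every day 3 sample lay above every day 0 and day 1 sample, and every day 5 sample lay above those of days 0 and 1. The change at day 5 was 2.59 ± 0.33 (SE; 6.01-fold higher; limma adjusted p = 8e-04), and it was 1.95 ± 0.36 against day 1 (limma adjusted p = 0.0103, or 0.0518 without day 1 replicate 2). At day 3 the change from day 0 was 1.56 ± 0.36 (limma adjusted p = 0.178). Without day 3 replicate 2 that change was 1.69 ± 0.40 with a limma adjusted p of 0.0406.

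DUSP5 encodes a nuclear phosphatase with a preference for ERK. It read 9.02, 9.00, 9.37 and 10.29 at day 0, 9.17, 9.24 and 10.02 at day 1, 10.60, 8.86 and 10.81 at day 3, and 10.14, 9.42, 11.24 and 11.04 at day 5. The groups overlapped in every comparison, and replicate 4 of day 0 lay above the lowest sample of each later day. Its change of 1.04 ± 0.50 at day 5 did not pass the test (limma adjusted p = 0.324). Without replicate 2 of the 3 activin days, a setting added after the data were seen, it was 1.38 with a limma adjusted p of 0.0429.

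DUSP6 encodes the cytoplasmic ERK phosphatase that is widely used as a readout of FGF signalling. It read 11.59, 11.84, 11.46 and 11.55 at day 0 and 12.53, 12.30 and 12.30 at day 1. At day 3 it read 12.35, 11.21 and 12.08, and at day 5 11.46, 10.71, 11.55 and 11.42. All 3 day 1 samples lay above all day 0 and all day 5 samples. The day 1 change of 0.77 ± 0.29 did not pass the test (1.70-fold; limma adjusted p = 0.667). From day 1 to day 5 the change was -1.09 ± 0.29 (limma adjusted p = 0.0642, and 0.0148 without day 3 replicate 2, which enters through the shared estimate of spread). From day 0 to day 5 it was -0.32 ± 0.27 (limma adjusted p = 0.63).

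SPRY1 and ETV1 were the 2 genes that fell, and their promoters are shown for that reason, with that of SPRY2, a paralog of SPRY1 whose day 5 samples all lay above its day 0 samples. The sequences are the 250 bases before the RefSeq start site on GRCh38.p14, given 5′ to 3′ in the gene's orientation: SPRY1 at chr4:123396545-123396794 on the plus strand, ETV1 at chr7:13991426-13991675 on the minus strand and SPRY2 at chr13:80341127-80341376 on the minus strand. Each is 1 of the gene's listed start sites. Capitals mark a match to TGTNNATT, the motif of FOXH1, the partner of SMAD2 and SMAD3 in activin signalling.
SPRY1 promoter: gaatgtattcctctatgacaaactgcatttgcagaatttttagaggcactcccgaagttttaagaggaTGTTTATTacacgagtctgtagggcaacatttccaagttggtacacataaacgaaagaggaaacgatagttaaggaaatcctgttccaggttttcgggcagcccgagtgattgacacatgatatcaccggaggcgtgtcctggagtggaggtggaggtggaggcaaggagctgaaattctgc
ETV1 promoter: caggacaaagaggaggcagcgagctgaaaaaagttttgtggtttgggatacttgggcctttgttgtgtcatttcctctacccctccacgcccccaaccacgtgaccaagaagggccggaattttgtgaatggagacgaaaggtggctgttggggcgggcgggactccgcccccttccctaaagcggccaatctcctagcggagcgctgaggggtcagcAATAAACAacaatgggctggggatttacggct
SPRY2 promoter: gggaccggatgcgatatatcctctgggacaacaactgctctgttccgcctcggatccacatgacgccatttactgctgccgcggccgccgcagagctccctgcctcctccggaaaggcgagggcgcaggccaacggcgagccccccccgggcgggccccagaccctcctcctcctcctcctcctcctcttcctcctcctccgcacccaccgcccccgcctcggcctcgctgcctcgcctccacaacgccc
The search covered both strands of the 250 bases. SPRY1 held TGTTTATT at position -182 on its own strand and ETV1 held AATAAACA, the same motif on the opposite strand, at -32, counted from the start site. RefSeq promoters were in hand for 6 of the 10 genes (DUSP6, SPRY1, SPRY2, SPRY4, ETV1 and IL17RD). The motif was in 2 of these 6 and in 11.0% of the 35116 promoters of that length. The ETS motifs CCGGAAGT and AGGAAGTG, which share the letters GGAAGT, the AP-1 motif TGACTCA, the CRE motif TGACGTCA and the T-box motif AGGTGTGA were in 0 of the 6, and in 4.14%, 3.65%, 4.95%, 1.85% and 0.98% of all promoters. No binding was measured in these data.

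SPRY1, one of the Sprouty inhibitors of receptor tyrosine kinase signalling, was lower at day 5 than at days 0 and 1. It read 9.93, 9.48, 9.19 and 9.91 at day 0, 10.16, 9.72 and 9.87 at day 1, 8.70, 9.18 and 9.21 at day 3, and 8.34, 8.09, 8.59 and 8.80 at day 5. All day 3 and day 5 samples lay below all day 1 samples, and all day 5 samples lay below all day 0 samples. The day 5 change from day 0 was -1.17 ± 0.25 (2.25-fold lower; limma adjusted p = 0.0143, or 0.0562 without day 0 replicate 1). From day 1 to day 5 it was -1.46 ± 0.27 (limma adjusted p = 0.0102, or 0.0738 without day 1 replicate 1). The day 3 change of -0.60 ± 0.27 from day 0 did not pass the test (limma adjusted p = 0.548).

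SPRY2, also a Sprouty inhibitor, read 10.38, 10.16, 10.16 and 10.51 at day 0 and 10.56, 10.44 and 10.66 at day 1. It read 11.11, 10.18 and 11.32 at day 3 and 11.40, 10.68, 11.67 and 11.52 at day 5. Every day 5 sample lay above every sample of days 0 and 1. A change of 1.02 ± 0.28 at day 5 (2.02-fold) missed the threshold with all samples (limma adjusted p = 0.055). It passed without day 3 replicate 2 (limma adjusted p = 0.0135), without day 5 replicate 2 (0.0218) and without replicate 2 of the 3 activin days (1.23 ± 0.16, 0.00112). In the last setting SPRY2 was also called at day 3 against day 0 (0.91 ± 0.19, limma adjusted p = 0.0173) and at day 5 against day 1 (0.92 ± 0.20, 0.0219). That setting was added after the data were seen and leaves out the lowest SPRY2 sample of each activin day. With the replicate number as a block the limma adjusted p of SPRY2 at day 5 against day 0 was 0.0221.

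SPRY4, the third Sprouty gene, had the widest spread. It read 11.31, 11.12, 11.35 and 12.31 at day 0, 12.14, 10.62 and 12.34 at day 1, 12.38, 10.32 and 12.05 at day 3, and 11.18, 9.84, 11.85 and 11.92 at day 5. Replicate 2 was the lowest sample on each day, and the groups overlapped in every comparison. By day 5 the change was -0.33 ± 0.57 (limma adjusted p = 0.837), and 0.13 without day 5 replicate 2.

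IL17RD encodes a transmembrane protein that restrains signalling from FGF receptors to ERK. It read 10.36, 10.23, 10.36 and 11.46 at day 0, 11.29, 10.62 and 11.68 at day 1, 11.36, 9.46 and 11.17 at day 3, and 10.17, 8.71, 10.89 and 11.32 at day 5. As for SPRY4, replicate 2 was lowest on each day. The day 5 change was -0.33 ± 0.57 (limma adjusted p = 0.833) and turned to 0.19 without day 5 replicate 2.

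ETV1, a PEA3-type transcription factor, was lower at day 5 than at days 0 and 1. It read 10.16, 10.19, 9.67 and 9.86 at day 0, 10.35, 10.28 and 9.91 at day 1, 9.41, 9.56 and 9.01 at day 3, and 8.62, 8.27, 8.18 and 8.12 at day 5. The day 3 samples lay below all of days 0 and 1, and the day 5 samples lay below all others. The day 5 change was -1.67 ± 0.22 from day 0 (3.18-fold lower; limma adjusted p = 0.000847) and -1.88 ± 0.24 from day 1 (limma adjusted p = 0.00161). The change at day 3 of -0.64 ± 0.24 did not pass the test (limma adjusted p = 0.395), nor did that from day 3 to day 5 of -1.03 ± 0.24 (limma adjusted p = 0.188).

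ETV4, the founding PEA3 factor, read 9.97, 10.13, 10.46 and 10.55 at day 0, 10.73, 10.07 and 10.85 at day 1, 10.30, 9.40 and 10.18 at day 3, and 9.55, 9.09, 10.01 and 10.06 at day 5. All day 5 samples lay below all day 1 samples, by as little as 10.06 against 10.07. Neither the change from day 0 to day 5 of -0.60 ± 0.30 (limma adjusted p = 0.343) nor that from day 1 of -0.87 ± 0.32 (0.201) passed the test. With the replicate number as a block the latter had a limma adjusted p of 0.0453.

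ETV5, the third PEA3 factor, read 8.88, 9.21, 9.36 and 9.78 at day 0 and 9.47, 9.33 and 9.23 at day 1. It read 10.30, 9.18 and 10.07 at day 3 and 9.98, 9.47, 9.82 and 9.85 at day 5. The groups overlapped in every comparison with day 0. For day 5 the change was 0.47 ± 0.27 (limma adjusted p = 0.434).

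At day 1, all 10 genes had a mean above that of day 0, and none passed the test, against 0.00541% of all probe sets. The changes ran from 0.04 for ETV5 to 0.77 for DUSP6, with a median of 0.26 beside 0.03 for all probe sets, and the median absolute change was 0.26 in both. DUSP6 alone had an unadjusted p under 0.05, 1 of 10 against 6.03% of all probe sets, and it alone had groups that did not overlap, against 11.5%. The direction of DUSP5, SPRY4 and ETV5 at day 1 turned when single samples were left out.

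At day 3, none of the 10 genes passed the test against day 0, beside 0.027% of all probe sets, and 3 had an unadjusted p under 0.05 against 8.56%. The day 3 and day 0 samples did not overlap for DUSP4, higher, and ETV1, lower, 2 of 10 against 9.82% of all probe sets. Against day 1, none passed at day 3 (0.0324% of all probe sets; 3 of 10 with an unadjusted p under 0.05 against 8.62%), and DUSP4, SPRY1 and ETV1 did not overlap, against 12.6%. Leaving out day 3 replicate 2 raised the calls over all probe sets at day 3 against day 0 to 3.19%, and DUSP4 was then the 1 gene of the 10 called. From day 3 to day 5 none passed (0.0973% of all probe sets; 3 of 10 with an unadjusted p under 0.05 against 5.99%), and ETV1 alone did not overlap, against 4.98%.

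From day 1 to day 5, DUSP4 rose and SPRY1 and ETV1 fell, 3 of 10 against 3.33% of all probe sets. The samples did not overlap for 6 of the 10 genes, against 16.1%: DUSP4 and SPRY2 were higher, and DUSP6, SPRY1, ETV1 and ETV4 were lower. The comparisons with day 1 and with day 0 share the day 5 samples. A moderated F test over the 3 comparisons with day 0 called DUSP4 (limma adjusted p = 0.00405), SPRY1 (0.0204) and ETV1 (0.00237), 3 of 10 against 3.73% of all probe sets. The other 7 had limma adjusted p-values from 0.189 for DUSP6 to 0.99 for SPRY4. Leaving out 1 sample gave 2 to 5 calls in this F test, with the 5 without day 3 replicate 2, a setting that called 8.2% of all probe sets.

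**Figure D2:**
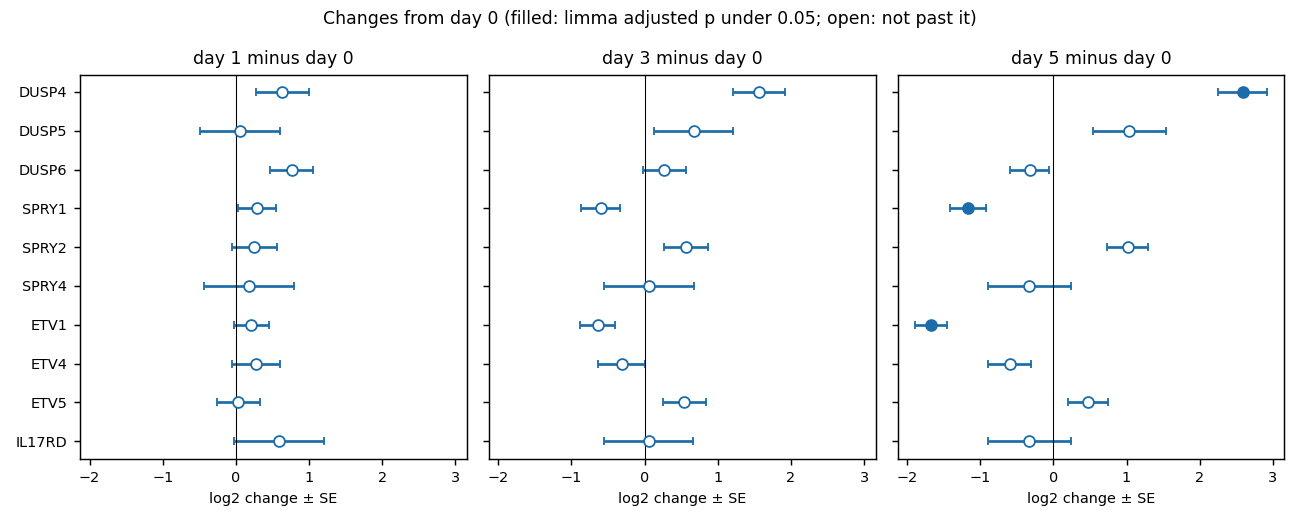
Log2 change from day 0 (horizontal axis) of each of the 10 genes at days 1, 3 and 5, with bars of 1 standard error from limma and filled points where the adjusted p is under 0.05. At day 5 the filled points are DUSP4 at 2.59, SPRY1 at -1.17 and ETV1 at -1.67, and no point is filled at days 1 and 3.

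Differences between members of 1 family were compared between day 0 and day 5. For each of the 9 pairs within the DUSP, Sprouty and ETV families, the difference between both log2 values was taken in each sample, and only its shift between days was read, because its size at 1 day depends on the probe sets. SPRY1 minus SPRY2 ran from -0.98 to -0.45 at day 0 and from -3.09 to -2.59 at day 5, a shift of -2.19. ETV1 minus ETV5 ran from 0.08 to 1.27 at day 0 and from -1.72 to -1.20 at day 5, a shift of -2.14. DUSP4 minus DUSP6 shifted by 2.91, from between -4.76 and -3.31 to between -1.92 and -0.45. In 7 of the 9 pairs the 4 day 0 and 4 day 5 samples did not overlap. Each had a two-sided exact permutation p of 0.0286, the smallest this design allows, and 0.0368 after Benjamini-Hochberg adjustment over the 9 pairs. With 4 against 4 samples, groups that do not overlap always give the permutation p of 0.0286, so it adds nothing to the lack of overlap. The remaining shifts, DUSP5 minus DUSP6 at 1.36 and SPRY1 minus SPRY4 at -0.85, had exact permutation p-values of 0.0857 (0.0857 adjusted). The 9 pairs share genes and samples and are not independent, and pairs with DUSP4, SPRY1 or ETV1 carry the changes given above. A shift does not need opposite directions: DUSP4 (2.59) and DUSP5 (1.04) both had means above day 0, and ETV1 (-1.67) and ETV4 (-0.60) means below. The share of other gene pairs with such a shift was not computed, so whether the 7 of 9 is particular to these families was not tested.

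Replicate 2 of each activin day was low for most of the genes. It was the lowest sample for 7 of 10 at day 1, 8 of 10 at day 3 and 8 of 10 at day 5, while it was lowest for 42.1%, 44.8% and 39.0% of all probe sets. Replicate 2 of day 0 was also lowest for 5 of 10, against 21.9% of all probe sets. Relative to its group mean, SPRY4 was at -1.08, -1.27 and -1.36 in replicate 2 of days 1, 3 and 5, and IL17RD was at -0.57, -1.20 and -1.56. ETV1 was at 0.10, 0.23 and -0.03, and SPRY1 was at -0.20, 0.16 and -0.36. The low values thus ran through SPRY4 and IL17RD on all 3 activin days and left ETV1 near its group mean.

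Some summed markers were low in these samples too. The primitive streak markers, 9 of 9 measured, summed to 2350.3 in day 3 replicate 2 against 17389.0 and 15812.6 in its group, and to 12287.8 in day 5 replicate 2 against 16692.1 to 22626.4. The endoderm sum of day 5 replicate 2 was 44426.3 against 47542.7 to 58506.4, and that of day 1 replicate 2 was 10340.1 against 10839.5 and 26206.0. The undifferentiated stem cell sum was also the lowest of its group in replicate 2 of each activin day (38264.0, 29579.0 and 20780.1), as was the neuroectoderm sum (4871.7, 7178.7 and 5521.7). A few sums ran the other way. That of 11 trophoblast and amnion markers was highest of its group in day 1 replicate 2 (893.4 against 689.7 and 714.8) and in day 3 replicate 2 (1303.4 against 1002.8 and 775.4). That of 8 mesoderm markers was highest in day 1 replicate 2 (2441.3) but lowest in day 3 replicate 2 (2122.6). In day 5 replicate 2 both of these sums were the lowest of their group (963.2 and 1375.9). The part of cell composition or array quality in these low values was not tested. The pooled spread within groups was 0.89 for SPRY4 and 0.88 for IL17RD, the 83.7th and 83.0th percentile of all probe sets. It was 0.43 and 0.50 without replicate 2 of the activin days, a setting added after the data were seen. Replicate 2 was the lowest SPRY4 and IL17RD sample on each of those days, so a smaller spread was built into this choice. For ETV1 the pooled spread was 0.25, at the 8.5th percentile, and 0.27 without these samples, with a median of 0.54 over all probe sets.

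**Figure D3:**
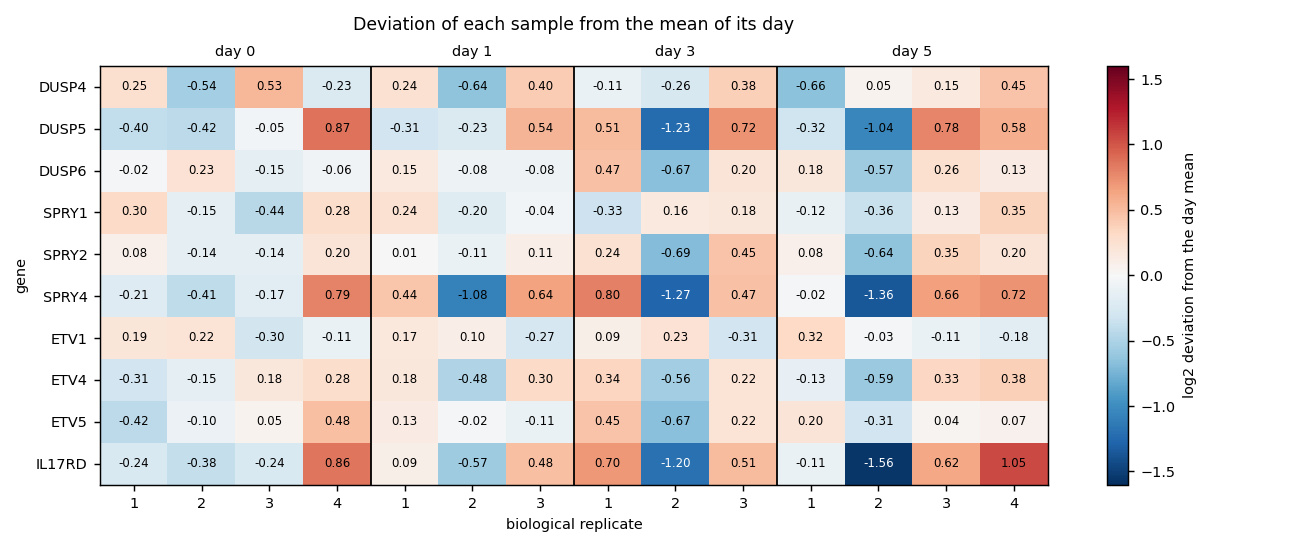
Deviation of each sample from its group mean in log2 units (colour) for the 10 genes (rows) in the 14 samples (columns). Replicate 2 of days 1, 3 and 5 reaches -1.08, -1.27 and -1.36 for SPRY4, while ETV1 stays at 0.10, 0.23 and -0.03.

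Arrays of the same sample were also compared. Across the 2 samples hybridised on 2 arrays each, the absolute difference of the 10 genes ran from 0.00 to 0.45, with a median of 0.12 at day 0 and 0.08 at day 5, beside 0.17 and 0.22 over all probe sets. The largest differences were 0.33 for SPRY4 at day 0, and 0.45 for DUSP4 and 0.39 for ETV1 at day 5. The pooled standard deviation between samples of a group was 0.25 for ETV1 and 0.47 for DUSP4. A difference of 2 arrays is another measure and cannot be ranked directly against it.

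Across the 14 samples, SPRY4 and IL17RD followed each other most closely of all pairs among the 10 (Pearson r = 0.944, and 0.973 over the 11 samples without replicate 2 of the activin days). DUSP4 and ETV1 ran opposite ways (r = -0.916). DUSP5 and SPRY2 had an r of 0.894, and SPRY1 and ETV1 one of 0.869. These are descriptions over 14 samples that share the 4 days and the normalization, so that genes that change with time correlate. SPRY4 and IL17RD did not pass the F test of change over days (limma adjusted p = 0.99 and 0.92). Both were lowest of their group in replicate 2 of each day and highest of day 0 in replicate 4.

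**Figure D4:**
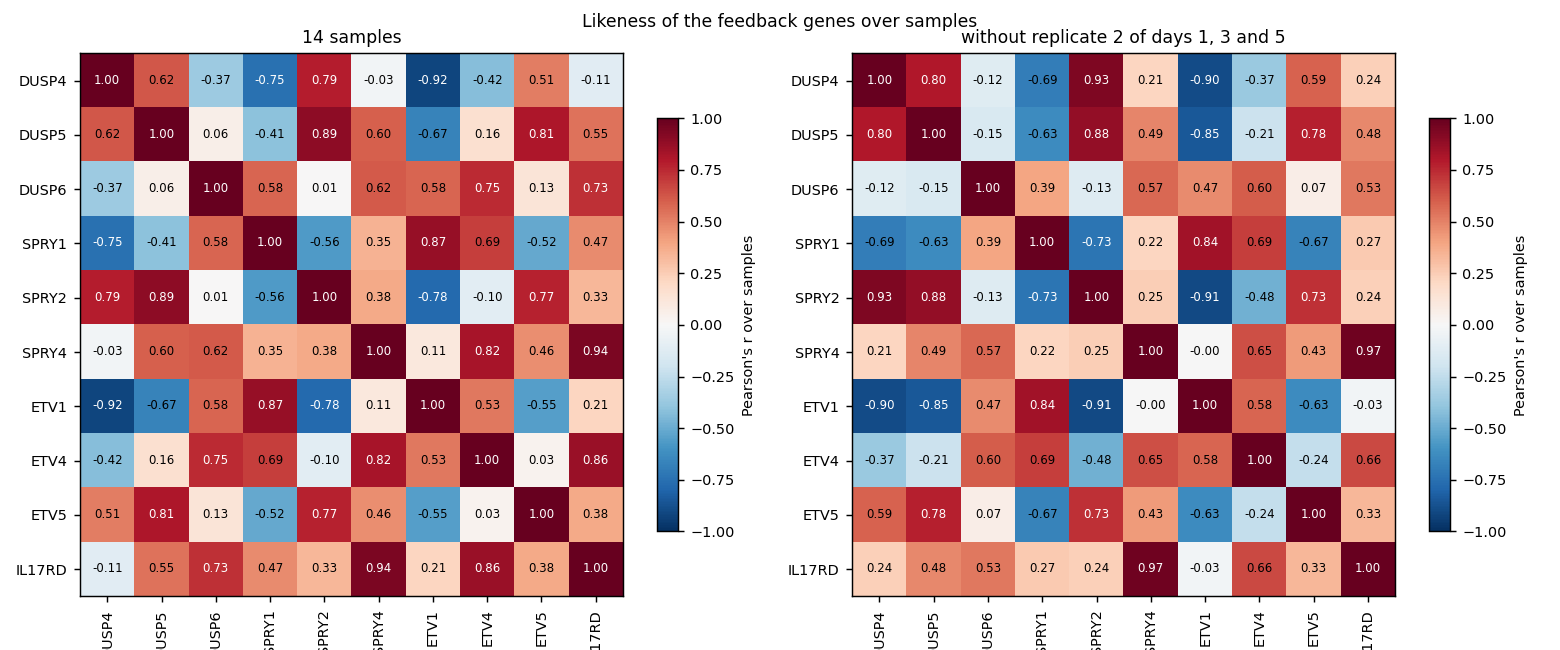
Pearson correlation (colour, with the value in each cell) between the 10 genes, on the left over the 14 samples and on the right over the 11 without replicate 2 of days 1, 3 and 5. On the left SPRY4 and IL17RD stand at 0.94 and DUSP4 and ETV1 at -0.92.

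Among 12951 other named genes, those with profiles closest to each feedback gene were also picked by Pearson r over the 14 samples. DUSP4 was closest to DIO3 (r = 0.950), DUSP5 to ADAM19 (0.960), DUSP6 to CYYR1 (0.948) and SPRY1 to GLB1L3 (0.938). SPRY2 was closest to ATP2B1, a calcium pump of the plasma membrane (0.972), SPRY4 to MPRIP (0.978), ETV1 to WDR35 (0.967), ETV4 to AGO1 (0.954), ETV5 to ITCH (0.915) and IL17RD to BOD1L1 (0.958). Without replicate 2 of the activin days these values ran from 0.896 for CYYR1 to 0.974 for ADAM19. The closest genes were chosen for this likeness on these samples.

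Other genes of the pathway came from lists written from textbook knowledge. Of 22 FGF ligands, 17 had a probe set of their own, and at day 5 2 rose and 2 fell, against 5.46% of all probe sets called. Without day 3 replicate 2, which raised the calls over all probe sets to 8.73%, 4 rose and 2 fell, with FGF5 and FGF10 added. FGF17 ran from 5.17 to 7.87 at day 0 and from 12.24 to 13.12 at day 5 (6.56 ± 1.32, limma adjusted p = 0.0108). FGF8 ran from 6.71 to 7.80 and from 9.44 to 9.61 (2.19 ± 0.47, 0.015). FGF4, an FGF of pluripotent cells, ran from 5.89 to 6.98 at day 0, from 9.37 to 10.91 at day 1 and from 3.20 to 5.38 at day 5. Its day 5 change was -2.51 ± 0.46 (limma adjusted p = 0.00681). All day 0 and day 5 values of FGF4 lay below the array medians, 245.1 to 246.3 linear units. That fall is thus between low readings, and the part of background signal in it was not tested. FGF19, a ligand with endocrine functions, ran from 8.35 to 8.83 and from 5.55 to 7.05 (-2.25 ± 0.41, limma adjusted p = 0.00644). All day 5 values of FGF19 and all day 0 values of FGF17 and FGF8 also lay below the array medians. The part of background signal in these was not tested either.

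The day 1 change of FGF4 of 3.54 ± 0.50 missed the threshold with all samples (limma adjusted p = 0.0649) and passed without day 3 replicate 2 (0.0194). Against day 0, 0 of 17 FGF ligands passed at days 1 and 3 with all samples, where 0.00541% and 0.027% of all probe sets were called. Against day 1, FGF4 fell at day 3 (-4.11 ± 0.53, limma adjusted p = 0.0209), where 0.0324% of all probe sets were called. Without day 3 replicate 2, 2 rose at day 1, FGF4 and FGF8, where 0.249% of all probe sets were called. In that setting 2 rose and 1 fell at day 3, where 3.19% were called.

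All 10 receptors and co-receptors were measured, and 1 rose and 1 fell at day 5 (5.46% of all probe sets called). Without day 3 replicate 2, FLRT2 and FGFR4 were called as well (8.73%). FLRT3, a membrane protein that binds FGF receptors, ran from 6.42 to 7.87 at day 0 and from 10.03 to 11.02 at day 5 (3.38 ± 0.78, limma adjusted p = 0.0221). All its day 0 values lay below the array medians. The receptor FGFR2 ran from 9.74 to 10.21 and from 8.35 to 9.08 (-1.20 ± 0.28, limma adjusted p = 0.0239). Of 28 genes of the RAS-ERK cascade, from the adaptors to the kinases and ELK factors, 18 were measured and 0 passed at day 5, and 1, HRAS, was called higher without replicate 2 of the activin days, where 11.4% of all probe sets were called. The largest changes there were -0.89 ± 0.35 for KSR2 (limma adjusted p = 0.195) and -0.82 ± 0.52 for SHC1 (0.494), which was at -0.37 without day 5 replicate 2.

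Of 25 other inhibitors of the pathway, 20 were measured, and 2 rose and 1 fell at day 5 (5.46% of all probe sets called), or 3 and 3 without replicate 2 of the activin days (11.4%). LRIG3, of a family of receptor kinase regulators, changed by 3.84 ± 0.83 (limma adjusted p = 0.0169), the phosphatase DUSP10 by 1.22 ± 0.31 (0.0367) and the phosphatase DUSP16 by -0.90 ± 0.20 (0.018). DUSP10 and DUSP16 act mainly on JNK and p38. Of 25 other targets of ERK, 23 were measured, and 1 rose and 1 fell (5.46% of all probe sets called). There 3 rose and 1 fell without day 3 replicate 2 (8.73%), with BCAR3 and IER3 added, and 6 rose and 1 fell without replicate 2 of the activin days (11.4%). EPHA4, an ephrin receptor, changed by 3.20 ± 0.70 (limma adjusted p = 0.0177), and EGR1, an immediate early transcription factor, by -1.77 ± 0.45 (0.0372). All day 0 values of EPHA4 and all day 5 values of EGR1 lay below the array medians.

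No gene of the receptor, cascade, inhibitor and target lists passed against day 0 at day 1 or day 3 with all samples, beside 0.00541% and 0.027% of all probe sets. Without day 3 replicate 2, 2 receptors or co-receptors, 1 cascade gene, 2 inhibitors and 3 targets rose at day 3 (3.19% of all probe sets called), and none of these lists had a call at day 1. The median change at day 5 was 0.37 for the ligands, -0.01 for the receptors, -0.23 for the cascade, -0.14 for the other inhibitors and -0.21 for the other targets, beside -0.02 for all probe sets. These medians depend on replicate 2: without replicate 2 of the activin days they were 0.34, -0.14, 0.05, -0.02 and -0.04, beside -0.03, and 11 in place of 6 of the 18 cascade genes were above 0. Among the calls, FGF17, FGF4 and FGF19 kept theirs when any 1 of the 14 samples was left out. FGF8 lost its call without 1 sample (day 0 replicate 2, limma adjusted p = 0.056), DUSP16 without day 0 replicate 2 (0.0669) and LRIG3 without day 0 replicate 1 (0.0521) or 2 (0.053). EPHA4 lost it in 3 of the 14 settings, FGFR2 in 4, FLRT3 in 6, DUSP10 in 7 and EGR1 in 9.

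**Figure D5:**
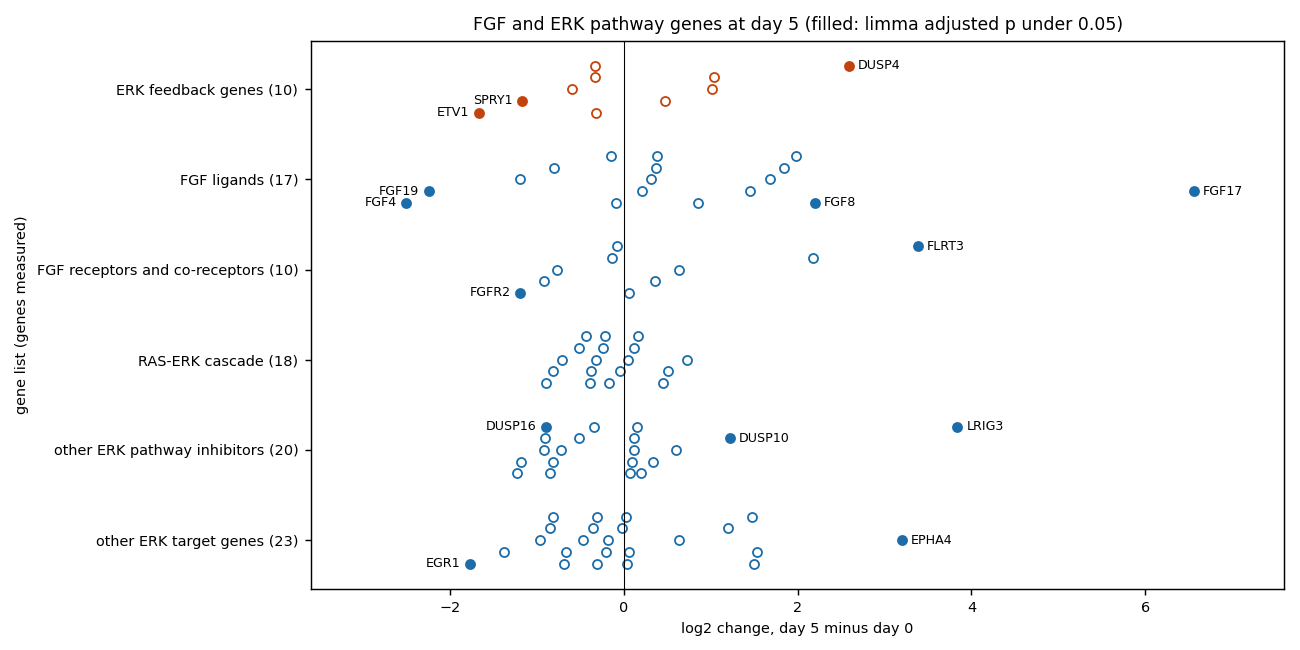
Log2 change from day 0 to day 5 (horizontal axis) of the feedback genes and of 5 lists of pathway genes (rows, with the number measured). Each point is 1 gene, filled and named where the limma adjusted p is under 0.05, with FGF17 at 6.56 and FGF4 at -2.51 and no filled point in the RAS-ERK cascade.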

How the data were processed

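RNA was measured on 16 arrays. The authors deposited gene-level intensity values on a linear scale. Per the submitters' processing notes the build is hg18. How the arrays were background-corrected, summarised and normalized is not given in the sources used here. A pseudocount of 1 was added before log2. Arrays of 1 sample were averaged, which left 14 samples. All 4 groups entered 1 fit (limma 3.58.1 under R 4.3.3, functions lmFit and eBayes) without further terms than the group, with 10 residual and 3 prior degrees of freedom and Benjamini-Hochberg adjustment over 18495 probe sets at 0.05. The code was tested on simulated data. Precision is limited by how many arrays there are. The named genes are the 10 feedback genes, the 3 genes most like each of them (1 printed), and, from each pathway list, up to 4 called genes with the largest day 5 change, or the 2 largest where none was called. For SOX17 the value was chosen after it was seen. The genes and lists were chosen with earlier results of these data known. Symbols came from GEO's platform annotation, in which 14577 probe sets carry 1 symbol, 2849 several and 1069 none, and promoters came from RefSeq on GRCh38.p14. No protein features were used here. The replicate numbers were checked for pairing. Alternatives were a pseudocount of 16, no dim probe sets (lowest 25%), other treatment of technical arrays, quantile normalization, median centring, trend and robust eBayes, array weights, the replicate block, only the groups compared, a threshold of 0.01 and leaving out samples. Leaving out replicate 2 of every activin day was added after seeing the data. Tables and figures were made in Python 3.11.15 (matplotlib 3.10.9, pandas 2.3.3, numpy 2.4.6).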

Additional observations from a re-analysis of the deposited data

Results flagged for a closer look

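In 2 of 20 groups of 4 samples, 1 sample lay far from the rest (Dixon's test, which chance flags in about 1 of 20 groups). DUSP6 at day 5 was 10.71 in replicate 2, against 11.42 to 11.55 in the other 3 samples. IL17RD at day 0 was 11.46 in replicate 4, against 10.23 to 10.36 in the other 3. That day 0 sample also had the highest summed markers of its group for fibroblasts (6291.0), mesoderm (2860.0), neuroectoderm (9848.8) and trophoblast and amnion (2458.7). The part of these in the IL17RD value was not tested.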

How the results depend on the processing

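Of the called changes, DUSP4 and ETV1 from day 0 to day 5 kept their call in each of the 14 fits that left out 1 sample (limma adjusted p up to 0.00432 and 0.00523), and SPRY1 lost it in 1. With all samples in the fit and the threshold at 0.05, no called change of the 10 genes lost its call, but calls were gained. SPRY2 from day 0 to day 5 passed with a pseudocount of 16 (limma adjusted p = 0.0415), without dim probe sets (0.0383), with technical replicate 2 alone (0.0471) and with trend and robust eBayes (0.0425). DUSP6 from day 1 to day 5 passed with a pseudocount of 16 (limma adjusted p = 0.0476), without dim probe sets (0.0439), with the sample as a random block (0.046) and with trend and robust eBayes (0.0448). At a threshold of 0.01, 3 called changes lost their call, and 1 gene was called from day 1 to day 5 (1.0% of all probe sets called). The replicate numbers gave 19 same-numbered pairs of samples, whose deviations from the group means correlated from -0.284 to 0.645, 10 of them over 0.1. Of the 14 samples, 8 correlated best with a sample of their own number. Between activin days, replicate 2 correlated at 0.509, 0.513 and 0.645 and replicate 3 at 0.365, 0.427 and 0.561. Replicate 1 had 0.188, -0.152 and -0.143, and replicate 3 of day 0 had -0.107, -0.281 and -0.284 with those of later days. The labels do not say that the numbers pair samples, and the main fit left them out. Whether they do was not tested. With the replicate number as a block, 4 genes were called from day 0 to day 5 (SPRY2 added), 4 from day 1 to day 5 (ETV4 added), 3 by the F test and 0 elsewhere. The shares of all probe sets called were 7.83%, 4.01% and 4.64% for the first 3, and 1448 in place of 1009 probe sets were called from day 0 to day 5. Array weights, whose fit did not converge, called 3 genes from day 0 to day 1, 7 to day 3 and 5 to day 5, 7 from day 1 to day 3, 3 from day 3 to day 5, 7 from day 1 to day 5 and 8 by the F test, where 13.7%, 15.1%, 16.2%, 34.1%, 4.31%, 34.6% and 45.5% of all probe sets were called. They turned DUSP5 at day 1 (-0.13), ETV4 at day 3 (0.020), SPRY4 (0.29) and IL17RD (0.39) at day 5, and SPRY4 from day 1 to day 3 (0.12). Without replicate 2 of days 3 and 5 together, and also without replicate 2 of every activin day, 2 genes were called from day 0 to day 3, 5 from day 0 to day 5, 5 from day 1 to day 5 and 5 by the F test. The shares of all probe sets called were 5.72%, 9.92%, 8.13% and 11.5% in the first setting, and 7%, 11.4%, 6.47% and 11.7% in the second. Both settings turned SPRY4 (0.13) and IL17RD (0.19) at day 5, and the first also turned SPRY4 (0.51) and IL17RD (0.066) from day 1 to day 3. Leaving out 1 sample gave 0 to 1 calls from day 0 to day 3 and 2 to 5 by the F test. The 1 and the 5 came without day 3 replicate 2, where 3.19% and 8.2% of all probe sets were called. It moved the day 1 change of DUSP5 between -0.21 and 0.35, of SPRY4 between -0.14 and 0.72 and of ETV5 between -0.11 and 0.19, and the day 3 change of SPRY4 between -0.34 and 0.69 and of IL17RD between -0.29 and 0.66. The day 5 change lay between -0.57 and 0.13 for SPRY4 and between -0.68 and 0.19 for IL17RD. From day 1 to day 3 the changes lay between -0.66 and 0.51 for SPRY4 and between -0.88 and 0.066 for IL17RD. From day 3 to day 5 they lay between -0.24 and 0.73 for DUSP5, between -1.02 and 0.068 for SPRY4, between -0.40 and 0.15 for ETV5 and between -0.99 and 0.13 for IL17RD. The cause of these turns was not tested. None of the changes that turned was past the threshold with all samples. Each of the 10 genes has 1 probe set, so no other row could be tried, and the F test needs all groups.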

Other observations

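Day 0 replicate 4 was the highest of its group for 6 of the 10 feedback genes, while it was highest for 26.2% of all probe sets. It read 10.29 for DUSP5, 12.31 for SPRY4, 10.55 for ETV4 and 9.78 for ETV5. Day 5 replicate 4 was the highest for 5 of 10, against 22.2% of all probe sets.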
